A study of Rattus norvegicus with 12 samples.

Results

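The carnitine shuttle and the mitochondrial beta-oxidation spiral were followed in rat left ventricle. The members were 10 genes, Cpt1a, Cpt1b, Cpt2, Slc25a20, Acadvl, Acadl, Acadm, Hadha, Hadhb and Acaa2. Every probe set whose annotation named a single gene of this set was used, which gave 14 of the 8740 probe sets of the array and covered all 10 genes. Ventricles of rats that had run on a treadmill for 7 weeks (the exercised group, 6 samples) were compared with ventricles of sedentary rats (6 samples), in a study of heart growth under exercise. Total RNA of each sample was hybridised to 1 single-channel array. Samples are called by group and by the number in their label. Strain, age, sex, running schedule and the hours between the last run and sampling were not given in the sources used here. The labels do not state whether every number stands for its own animal. The p-values therefore reflect sample-to-sample spread only, and part of that spread may be technical.

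Long-chain fatty acids are a main fuel of the adult heart, and their acyl-CoA esters cannot cross the inner mitochondrial membrane unaided. CPT1 on the outer membrane turns them into acylcarnitines, the carrier Slc25a20 exchanges acylcarnitine for carnitine across the inner membrane, and CPT2 restores the acyl-CoA on the matrix side. Acyl-CoA dehydrogenases graded by chain length then open each turn of beta-oxidation. For long chains the other steps are carried out by the trifunctional protein, whose alpha subunit is encoded by Hadha and whose beta subunit is encoded by Hadhb, and for shorter chains by separate enzymes such as the thiolase Acaa2.

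The genes of the trifunctional protein lie head to head. How closely their transcripts varied together depended on the Hadha probe set, as described further on. RefSeq promoter windows of the GRCr8 assembly, from 250 bases before to 50 bases after a start site, were found for 7 of the 10 genes and not for Cpt1b, Acadl and Acaa2. The Hadha window is shown because 200 of its 300 bases also belong to the window of Hadhb, read on the other strand. The start sites of both genes were 301 bases apart. Capitals mark the 200 shared bases in the Hadha window, chr6:31907551-31907850 on the plus strand.
Hadha: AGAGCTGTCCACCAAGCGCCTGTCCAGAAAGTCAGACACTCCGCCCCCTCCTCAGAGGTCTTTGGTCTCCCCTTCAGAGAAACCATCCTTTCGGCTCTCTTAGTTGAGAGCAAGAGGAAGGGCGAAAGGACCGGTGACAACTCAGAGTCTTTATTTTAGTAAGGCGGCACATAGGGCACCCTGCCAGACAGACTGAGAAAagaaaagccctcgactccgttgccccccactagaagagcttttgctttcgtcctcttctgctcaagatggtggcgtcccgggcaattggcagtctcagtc
Cpt2 and Acadm, the pair with the next closest variation, lie on chromosomes 5 and 2 and share no window. Their windows are chr5:127910769-127911068 and chr2:245542815-245543114, both on the minus strand, and capitals mark GGGCGG, a GC box, on either strand.
Cpt2: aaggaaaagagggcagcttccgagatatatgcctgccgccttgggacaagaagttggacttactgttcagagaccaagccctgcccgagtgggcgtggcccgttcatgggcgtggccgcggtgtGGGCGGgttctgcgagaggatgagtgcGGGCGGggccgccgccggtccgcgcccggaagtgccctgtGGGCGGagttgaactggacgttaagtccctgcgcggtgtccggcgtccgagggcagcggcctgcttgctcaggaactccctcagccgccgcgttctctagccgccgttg
Acadm: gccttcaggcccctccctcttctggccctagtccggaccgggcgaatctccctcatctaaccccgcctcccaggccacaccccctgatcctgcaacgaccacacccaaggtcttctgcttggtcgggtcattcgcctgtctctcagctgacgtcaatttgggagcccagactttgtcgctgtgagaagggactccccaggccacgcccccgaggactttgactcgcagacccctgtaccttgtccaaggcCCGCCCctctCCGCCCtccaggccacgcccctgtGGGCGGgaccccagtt
GGGCGG stood in the windows of 5 of the 7 members, Cpt2, Slc25a20, Acadm, Hadha and Hadhb, and in 33.1% of 33469 RefSeq windows of the same length. The match in the Hadha window lies in the shared bases and is also a match in the Hadhb window, so it was counted for both genes. AGGTCA, the half-site bound by PPAR, RXR and related nuclear receptors, was present in the windows of Acadvl, which held 2 copies, and Hadhb, and in 16.2% of all windows. The longer TCAAGGTCA, which contains AGGTCA and is the form preferred by the ERR receptors, was in none of the 7 and in 0.433% of all windows. CCAAT was in the Hadha window and in 37.5% of all windows. Both strands were searched for each motif. A match is a run of letters, not a measured binding site.

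The arrays were on a common scale, with median intensities from 840 to 875. A difference below is the exercised mean less the sedentary mean of log2(intensity + 363), and the added 363 shrinks the change of dim probe sets. Of 12 measured heart muscle markers, among them Myh6, Tnnt2 and Pln, all exceeded the filter on dim probe sets, and their summed intensity was 457492 to 510944 in sedentary and 469402 to 503045 in exercised samples. Sedentary 17 lay far below the other sedentary samples for Cpt1a and Acadm. The haemoglobin gene Hbb, a marker of red blood cells, ranged from 8786 to 33321 in exercised samples, with exercised 4 and 5 lowest, and from 31532 to 37795 in sedentary samples. Fibroblast markers (9 measured, such as Col1a1 and Dcn) summed to 39384 to 53292 in sedentary and 49539 to 76280 in exercised samples. Postn was the only one of the 9 that did not exceed the filter. Of the 8 tested, 7 were higher by sign and 1, Fn1 at -0.088, was lower, with a median difference of 0.24. Of 4 tested atrial markers 2 were higher and 2 lower by sign. Among them Myl7 ranged from 1136 to 8652 in sedentary samples, with a median of 1255, and from 1323 to 1499 in exercised samples. Nppa ranged from 5870 to 26157 in sedentary and from 7240 to 23843 in exercised samples. The part of atrial tissue in the differences below was not tested. In whole tissue, fewer cells of a type and less RNA per cell cannot be told apart.

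No member passed the test. Of 13 tested member probe sets, 0 passed a limma adjusted p of 0.05, against 0.32% of all 6555 tested probe sets (21), split into 0.275% higher and 0.0458% lower. At an unadjusted p under 0.05 there were 2, 1 higher and 1 lower, in a table where 16.2% of all tested probe sets were below that value, 9.26% higher and 6.91% lower. In none of the 13 did the groups separate completely, as they did in 2.07% of all tested probe sets. By sign 5 were higher and 8 lower, where 51.4% of all tested probe sets were higher and 48.6% lower. The median difference of the 13 was -0.0066, beside 0.0027 for all tested probe sets. With 1 probe set per gene, 5 of the 10 genes were higher and 5 lower, with a median of 0.025. Of all 3876 genes so counted, 1995 were higher and 1881 lower, with a median of 0.0029. The 95% intervals of the 13 differences lay between -0.44, for a probe set of Hadha, and 0.31 for Acadvl.

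**Figure D1:**
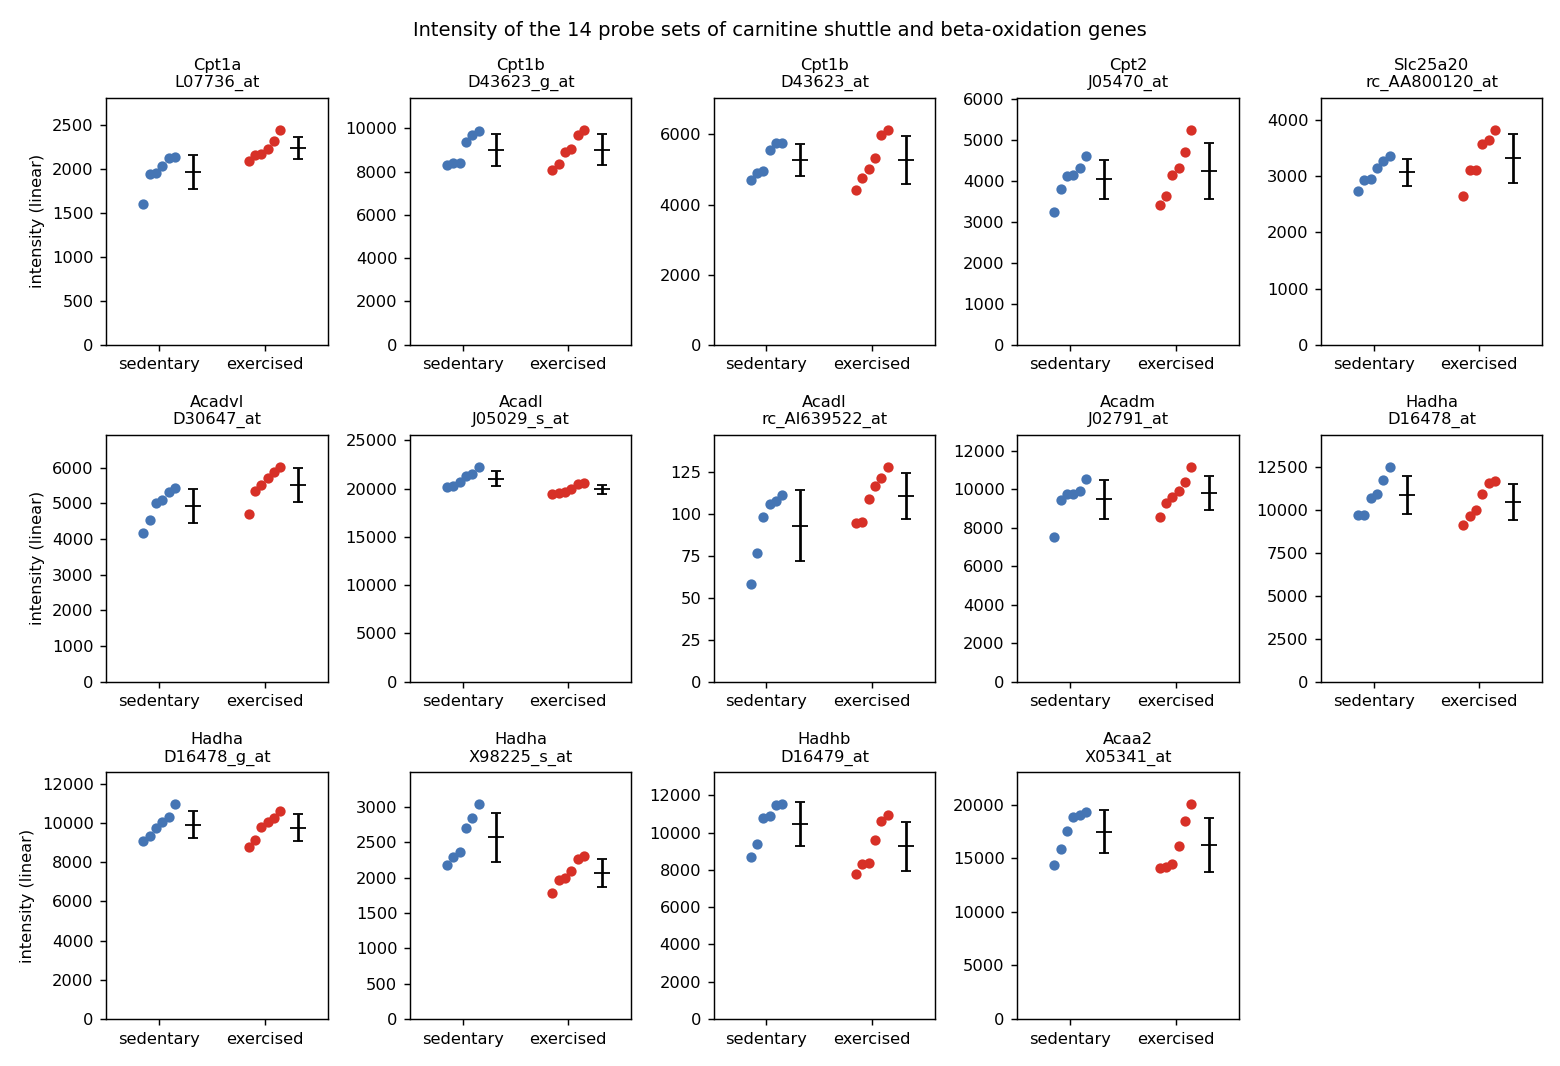
Linear intensity of the 14 member probe sets in sedentary (blue) and exercised (red) samples. Each point is 1 array, sorted by value within its group, and the bar beside each group is the mean with its SD (n = 6 per group). The groups overlap in every panel. For Cpt1a 5 of 6 exercised samples lie above every sedentary one, and for the Hadha probe set X98225_s_at 4 of 6 lie below every sedentary one.

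**Figure D2:**
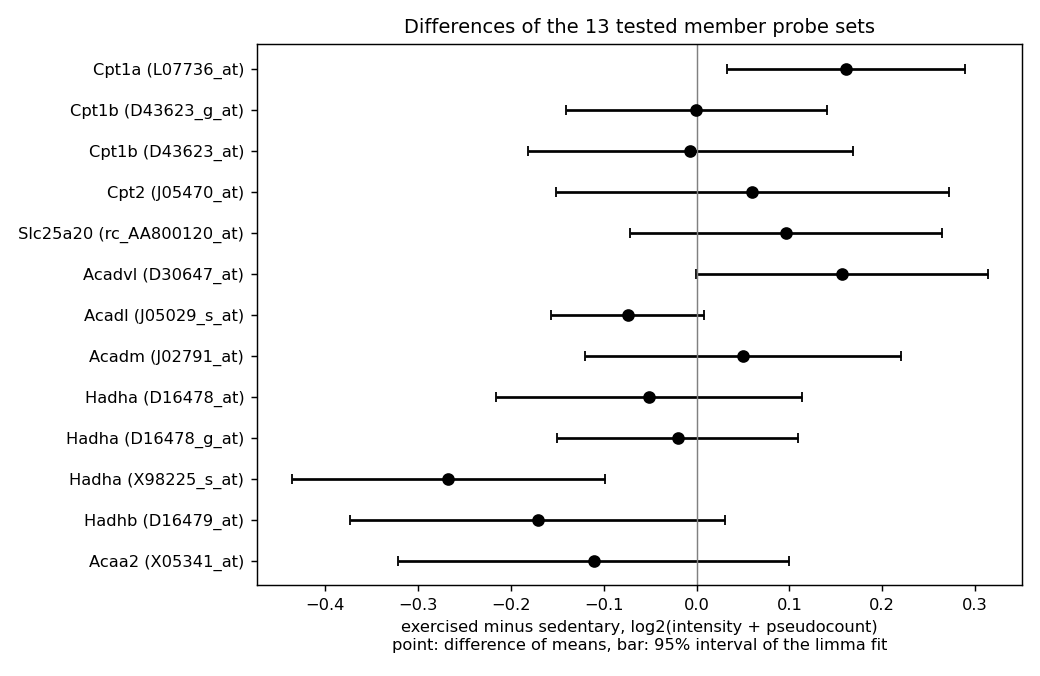
Exercised minus sedentary difference of the 13 tested member probe sets on the log2(intensity + 363) scale, with the 95% interval of the limma fit. The intervals of Cpt1a and of the Hadha probe set X98225_s_at exclude 0 before adjustment for multiple tests, and none passes after it.

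CPT1, the step at which fatty acid entry is controlled, was measured through both of its heart isoforms. Cpt1a, the isoform that dominates in liver, had intensities of 1605, 1998 and 2144 (lowest, median and highest) in sedentary and 2100, 2204 and 2447 in exercised samples. Of the exercised samples 5 lay above every sedentary one, and sedentary 17 supplied the lowest value. The difference was 0.16 ± 0.060 (SE, n = 6 per group), a factor of 1.12, with an unadjusted p of 0.0175 and a limma adjusted p of 0.204. Without sedentary 17 it was 0.11, and the adjusted p lay between 0.14 and 0.39 over all settings tried. Several markers of other cell types moved with the group, and their part in the Cpt1a difference was not tested. All 5 tested smooth muscle markers were higher by sign. The 6 measured genes of that list summed to 18430 to 21001 in sedentary and 20239 to 25493 in exercised samples. Most of that sum was Des, at 14014 ± 1787 in sedentary and 16279 ± 1948 in exercised samples (SD, n = 6), so the sum mainly followed 1 gene. Of 7 tested macrophage and leukocyte markers 3 were higher and 4 lower by sign, and Lyz2, the macrophage lysozyme, rose from 2401 ± 297 to 5421 ± 2104 (SD, n = 6, limma adjusted p = 0.0404). Of 6 fat cell markers 2 had positive and 4 negative differences, the median being -0.0027. Their sum, 21310 to 23305 in sedentary and 22993 to 27163 in exercised samples, followed Fabp4, which gave 0.26 ± 0.066 (limma adjusted p = 0.0920), while Plin1 gave -0.018.

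Cpt1b, the muscle isoform, showed no shift of its mean. Its brighter probe set D43623_g_at had 8302, 8872 and 9892 in sedentary and 8094, 8971 and 9914 in exercised samples, so that the exercised range enclosed the sedentary one. The means were 9003 ± 735 and 9001 ± 714 (SD, n = 6), and the 95% interval of the difference ran from -0.14 to 0.14. Its other probe set D43623_at gave a difference of -0.0066, with an interval from -0.18 to 0.17. Within each array Cpt1a moved up relative to Cpt1b by 0.16, with an exact two-sided permutation p of 0.0195 and an adjusted p of 0.0455 over 7 such pairs, which were chosen after the values were seen. The log2 ratio of their signals was -1.84 ± 0.090 in exercised and -2.01 ± 0.10 in sedentary samples (SD, n = 6). The call was fragile, because the adjusted p rose to between 0.0545 and 0.101 in 10 of 12 repeats with 1 array left out, all but those without exercised 8 or sedentary 23, where it was 0.0404 and 0.0455. With D43623_at in place of the brighter probe set the shift was 0.17 (exact permutation p = 0.0390, unadjusted).

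The carrier and the matrix transferase gave small positive differences within their spread. Slc25a20, the carnitine-acylcarnitine carrier, had 2747, 3049 and 3363 in sedentary and 2650, 3347 and 3825 in exercised samples. Exercised 7, 8 and 9 lay above every sedentary sample and exercised 1 below them all. The difference was 0.096 ± 0.079 (limma adjusted p = 0.552). Cpt2, which re-forms acyl-CoA in the matrix, had 3226, 4129 and 4613 in sedentary and 3413, 4234 and 5235 in exercised samples, and the difference was 0.060 ± 0.099 (limma adjusted p = 0.771). Exercised 9 was the highest of all 12 arrays for both genes, and without it the difference of Cpt2 was 0.00075 and that of Slc25a20 0.058. Without sedentary 17, its lowest array, Cpt2 gave 0.0026.

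The acyl-CoA dehydrogenases, which carry out the first oxidation of each turn, did not differ between groups beyond their spread. Acadvl, the enzyme for very long chains bound to the inner membrane, had 4160, 5052 and 5430 in sedentary and 4688, 5609 and 6012 in exercised samples. Exercised 5 was the lowest of its group, and 4 of the other exercised samples exceeded every sedentary one. The difference was 0.16 ± 0.073 (limma adjusted p = 0.311), and 0.11 without sedentary 17. Acadl, the long-chain dehydrogenase of the matrix, had 20130, 20970 and 22201 in sedentary and 19439, 19798 and 20537 in exercised samples on J05029_s_at. All 6 exercised samples lay below the sedentary mean and 4 below every sedentary sample, a difference of -0.074 ± 0.038 (limma adjusted p = 0.360), or a factor of 1.05. The other Acadl probe set, rc_AI639522_at, stayed under the filter with intensities of 58.3 to 111 in sedentary and 94.3 to 128 in exercised samples, and was not tested. Acadm, the medium-chain dehydrogenase, had 7529, 9747 and 10530 in sedentary and 8546, 9764 and 11155 in exercised samples. Its difference was 0.050 ± 0.080 (limma adjusted p = 0.763), and -0.013 without sedentary 17, the lowest of all 12 arrays.

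Between dehydrogenases of the same reaction, Acadvl moved up relative to Acadl within the arrays by 0.23 (exact two-sided permutation p = 0.0108, adjusted p = 0.0455 over the 7 pairs). The log2 ratio ran from -1.99 to -1.71 in exercised and from -2.21 to -1.93 in sedentary samples. The adjusted p exceeded 0.05 in 8 of 12 repeats with 1 array left out, reaching 0.0808, and stayed under it without exercised 5 (0.0152), exercised 8 (0.0404), sedentary 23 (0.0455) or sedentary 24 (0.0379). Acadvl against Acadm gave 0.11 (exact permutation p = 0.0931, adjusted p = 0.126) and Acadl against Acadm -0.12 (0.108, adjusted p = 0.126).

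The trifunctional protein genes had negative differences on all 4 of their probe sets, none past the test. Without exercised 4 and 5 together, D16478_at and D16478_g_at of Hadha turned to 0.011 and 0.014. Hadhb, the subunit with thiolase activity, had 8710, 10833 and 11510 in sedentary and 7796, 8970 and 10950 in exercised samples. Exercised 1, 4 and 5 lay below every sedentary sample, and exercised 7, 8 and 9 lay within the sedentary range. The difference was -0.17 ± 0.094 (limma adjusted p = 0.381), and -0.079 without exercised 4 and 5, the arrays low in Hbb. Hadha, the subunit with hydratase and dehydrogenase activity, had 9730, 10831 and 12506 in sedentary and 9143, 10468 and 11677 in exercised samples on D16478_at. The difference was -0.051 ± 0.077 (limma adjusted p = 0.749), with -0.011 when sedentary 24 was left out and -0.082 when exercised 9 was. D16478_g_at, from the same transcript record, gave -0.021 ± 0.060 (0.882).

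The remaining Hadha probe set, X98225_s_at, came from another transcript record and had the smallest p of all members. It had 2173, 2532 and 3037 in sedentary and 1776, 2043 and 2309 in exercised samples. All 6 exercised samples lay below the sedentary mean and 4 below every sedentary sample. The difference was -0.27 ± 0.079, a factor of 1.20, with an unadjusted p of 0.00430 and a limma adjusted p of 0.123 (0.0713 to 0.343 over the settings tried). It was -0.22 without sedentary 17, the array with its highest value. Within the arrays it moved against D16478_at by -0.22 (exact two-sided permutation p = 0.0433, adjusted p = 0.0758 over the 7 pairs), so the disagreement of the Hadha probe sets did not pass. Hadha on D16478_at moved up relative to Hadhb by 0.12 (exact permutation p = 0.0130, adjusted p = 0.0455). The log2 ratio of their signals was 0.18 ± 0.062 in exercised and 0.059 ± 0.065 in sedentary samples (SD, n = 6). This adjusted p exceeded 0.05 in 10 of 12 repeats with 1 array left out, all but those without exercised 8 (0.0404) or sedentary 24 (0.0379), and reached 0.0808. With D16478_g_at for Hadha the shift against Hadhb was 0.15 (exact permutation p = 0.0455, unadjusted), and with X98225_s_at it was -0.096 (exact permutation p = 0.504, unadjusted). X98225_s_at moved against D16478_g_at by -0.25 (exact permutation p = 0.0238, unadjusted).

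Acaa2, the thiolase that closes the spiral for medium chains, had 14370, 18177 and 19339 in sedentary and 14105, 15275 and 20016 in exercised samples. Exercised 5 was the highest of all 12 arrays and exercised 4 the lowest, so the exercised range enclosed the sedentary one. The difference was -0.11 ± 0.098 (limma adjusted p = 0.585), with -0.17 when exercised 5 was left out and -0.074 when exercised 4 was.

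The 10 genes tended to vary in the same direction from array to array once the group means were removed, Acaa2 only weakly. With 1 probe set per gene, all 45 pairs had a positive Pearson r over the 12 arrays, with a median of 0.57, and 40 stayed positive without the 2 arrays farthest from the median of the first gene. Meanwhile the median over all pairs of 3876 measured genes was -0.0013 and their 95th percentile 0.70. All genes of an array come from 1 hybridisation, so any difference between whole arrays enters every r. In the exercised samples alone 39 of the 45 pairs were positive, and in the sedentary samples alone 40. Of the 45 pairs, 9 passed an adjusted permutation p of 0.05 for both Pearson and Spearman coefficients, with values permuted within groups.

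**Figure D3:**
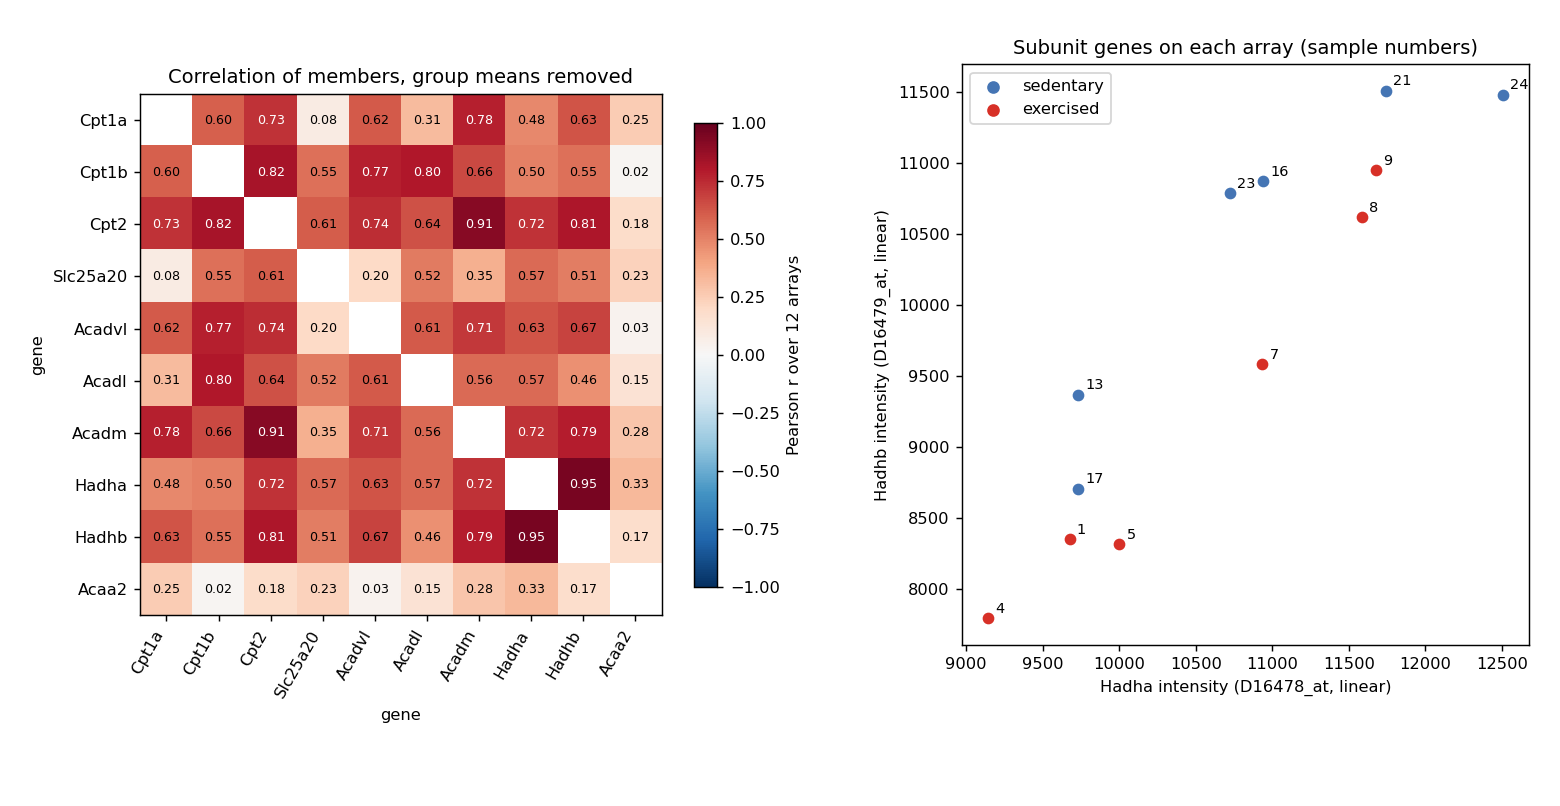
Left, Pearson r between the 10 genes over 12 arrays after removal of group means, with 1 probe set per gene. Right, linear intensity of Hadha against Hadhb on each array, with the sample number beside each point. The Hadha (D16478_at) and Hadhb pair has the highest r, at 0.95, and the row of Acaa2 is pale throughout, with no r above 0.33.

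With D16478_at, its probe set of highest mean, Hadha was closest to Hadhb, its head-to-head neighbour (Pearson r = 0.95, permutation p = 0.00013, adjusted p = 0.00405, and Spearman rho = 0.92, permutation p = 0.00019, adjusted p = 0.00855). The relation held in each group of 6, with r = 0.99 in exercised (exact permutation p = 0.00278) and 0.92 in sedentary samples (exact permutation p = 0.0125). Without sedentary 24 and exercised 4, the arrays farthest from the Hadha median, r was 0.97. With the other Hadha probe sets r with Hadhb was lower, 0.84 for D16478_g_at and 0.095 for X98225_s_at. Sedentary 21 and 24 were high for both genes, and exercised 4 was the lowest for both. Next came Cpt2 and Acadm (r = 0.91, permutation p = 0.00018, adjusted p = 0.00405, and rho = 0.89, permutation p = 0.00067, adjusted p = 0.0101). Their r was 0.98 in exercised and 0.88 in sedentary samples (exact permutation p = 0.00278 and 0.0389), and 0.85 without sedentary 17 and exercised 1, which were low for both. Cpt1b and Cpt2, the transferases on either side of the carrier, had r = 0.82 (permutation p = 0.00178, adjusted p = 0.0250) and rho = 0.89 (permutation p = 0.00062, adjusted p = 0.0101), and r = 0.79 without exercised 5 and 8.

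Over all 12 arrays Acaa2 had the lowest r with the mean of the other members, with unlike values in each group. Its r with each of the other 9 lay between 0.017 and 0.33, the lowest adjusted permutation p being 0.42. In sedentary samples all 9 were positive, from 0.28 with Cpt1a to 0.83 with Acadvl (exact permutation p = 0.0431, unadjusted). In exercised samples 3 of 9 were positive, from -0.69 with Acadvl to 0.27 with Cpt1a, and the difference between the groups was not tested. The median over the 36 pairs without Acaa2 was 0.62. Slc25a20 also had unlike values in each group. Its r ran from -0.53 with Cpt1a to 0.42 with Acadl in sedentary samples, and from 0.17 with Acaa2 to 0.96 with Acadm in exercised samples. That difference between the groups was not tested either. Cpt2 followed the mean of the other 9 most closely (r = 0.91), then Acadm (0.86), Hadhb and Hadha (both 0.83), and Slc25a20 (0.52) and Acaa2 (0.23) least. These values are descriptions over the same 12 arrays. The mean of the 10 genes, centred over all arrays, was lowest on sedentary 17 (-0.17) and exercised 1 (-0.12) and highest on exercised 9 (0.15), and both groups spanned 0.

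**Figure D4:**
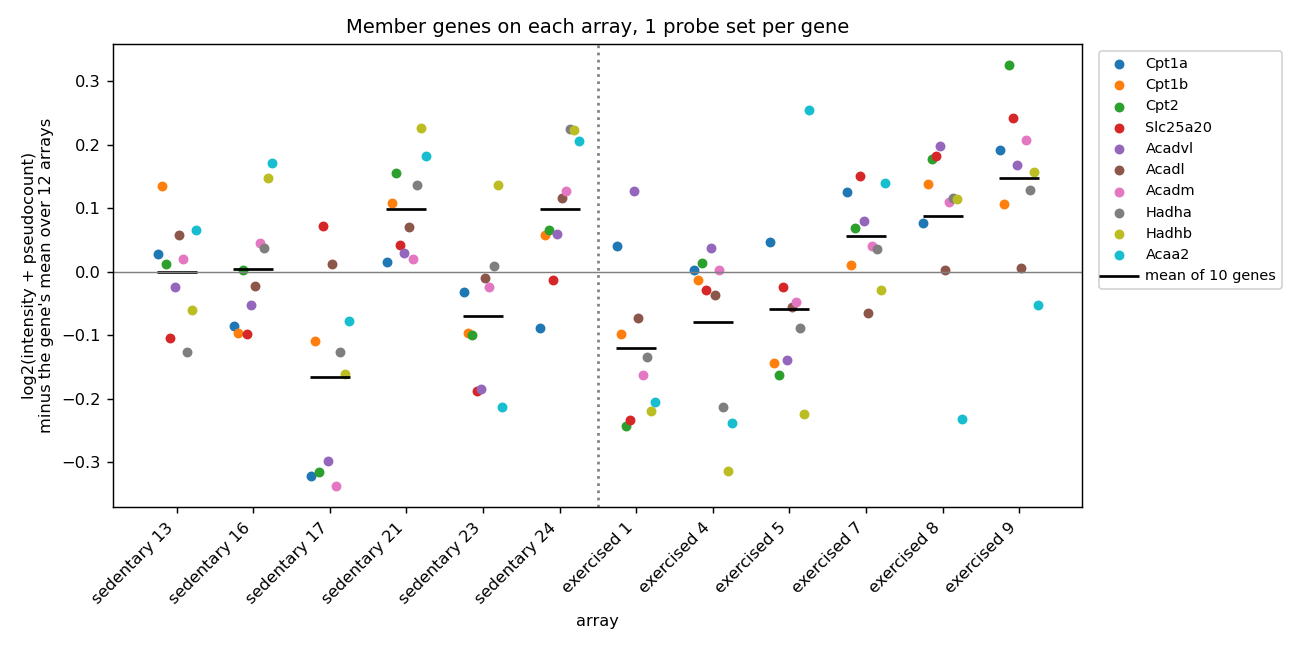
Each gene's log2(intensity + 363) on each of the 12 arrays minus its mean over all arrays, with 1 probe set per gene, and the mean of the 10 genes as a black bar. The black bars run from -0.17 on sedentary 17 to 0.15 on exercised 9, and both groups lie on either side of 0.

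The non-member genes whose pattern was most like the members' mean, by Pearson r over the 12 arrays with group means removed, were Auh, Fam210a, Stmp1, Hsd17b4 and Ywhae. Auh, a mitochondrial hydratase of leucine breakdown, had r = 0.96 (rho = 0.94), and 0.94 without sedentary 17 and exercised 1, the arrays farthest from the median of the members' mean. Fam210a and Stmp1, both mitochondrial proteins, had r = 0.96 each, and Hsd17b4, the multifunctional enzyme of peroxisomal beta-oxidation, and Ywhae, a 14-3-3 protein, had 0.95 each. They are the highest of 3866 genes and carry no test.

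The other genes of the pathway were read from 8 lists, of which 51 of 81 genes were measured and 46 tested. Ucp2 fell, and 45 did not pass. By sign 26 of the 46 were higher and 20 lower, with a median of 0.0097. Unadjusted p was under 0.05 for 10 of them, 6 higher and 4 lower, against 16.2% of all tested probe sets. Carnitine supply showed little difference, with 0.0097 ± 0.047 for the carnitine transporter Slc22a5 and 0.099 ± 0.048 for Crot, the peroxisomal carnitine octanoyltransferase (limma adjusted p of 0.934 and 0.330). The other Crot probe set, J02844_s_at, gave 0.0045 ± 0.042 (limma adjusted p = 0.968).

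Malonyl-CoA, made by acetyl-CoA carboxylase, inhibits CPT1, and the kinase AMPK restrains that carboxylase. None of the 5 tested genes of this control passed. The carboxylases gave -0.0095 ± 0.032 for Acaca and -0.0041 ± 0.072 for Acacb (limma adjusted p of 0.896 and 0.983). Of the AMPK subunits, the catalytic Prkaa2 gave 0.014 ± 0.060, the gamma subunit Prkag1 0.078 ± 0.061 and the beta subunit Prkab1 0.24 ± 0.081, with limma adjusted p of 0.924, 0.529 and 0.164. Prkag1 gave 0.029 without sedentary 17, its lowest array. Prkab1 went from 1788 ± 187 in sedentary to 2190 ± 318 in exercised samples (SD, n = 6), and the groups overlapped. Prkaa1 stayed under the filter, at 308 ± 29.2 and 290 ± 37.9.

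**Figure D5:**
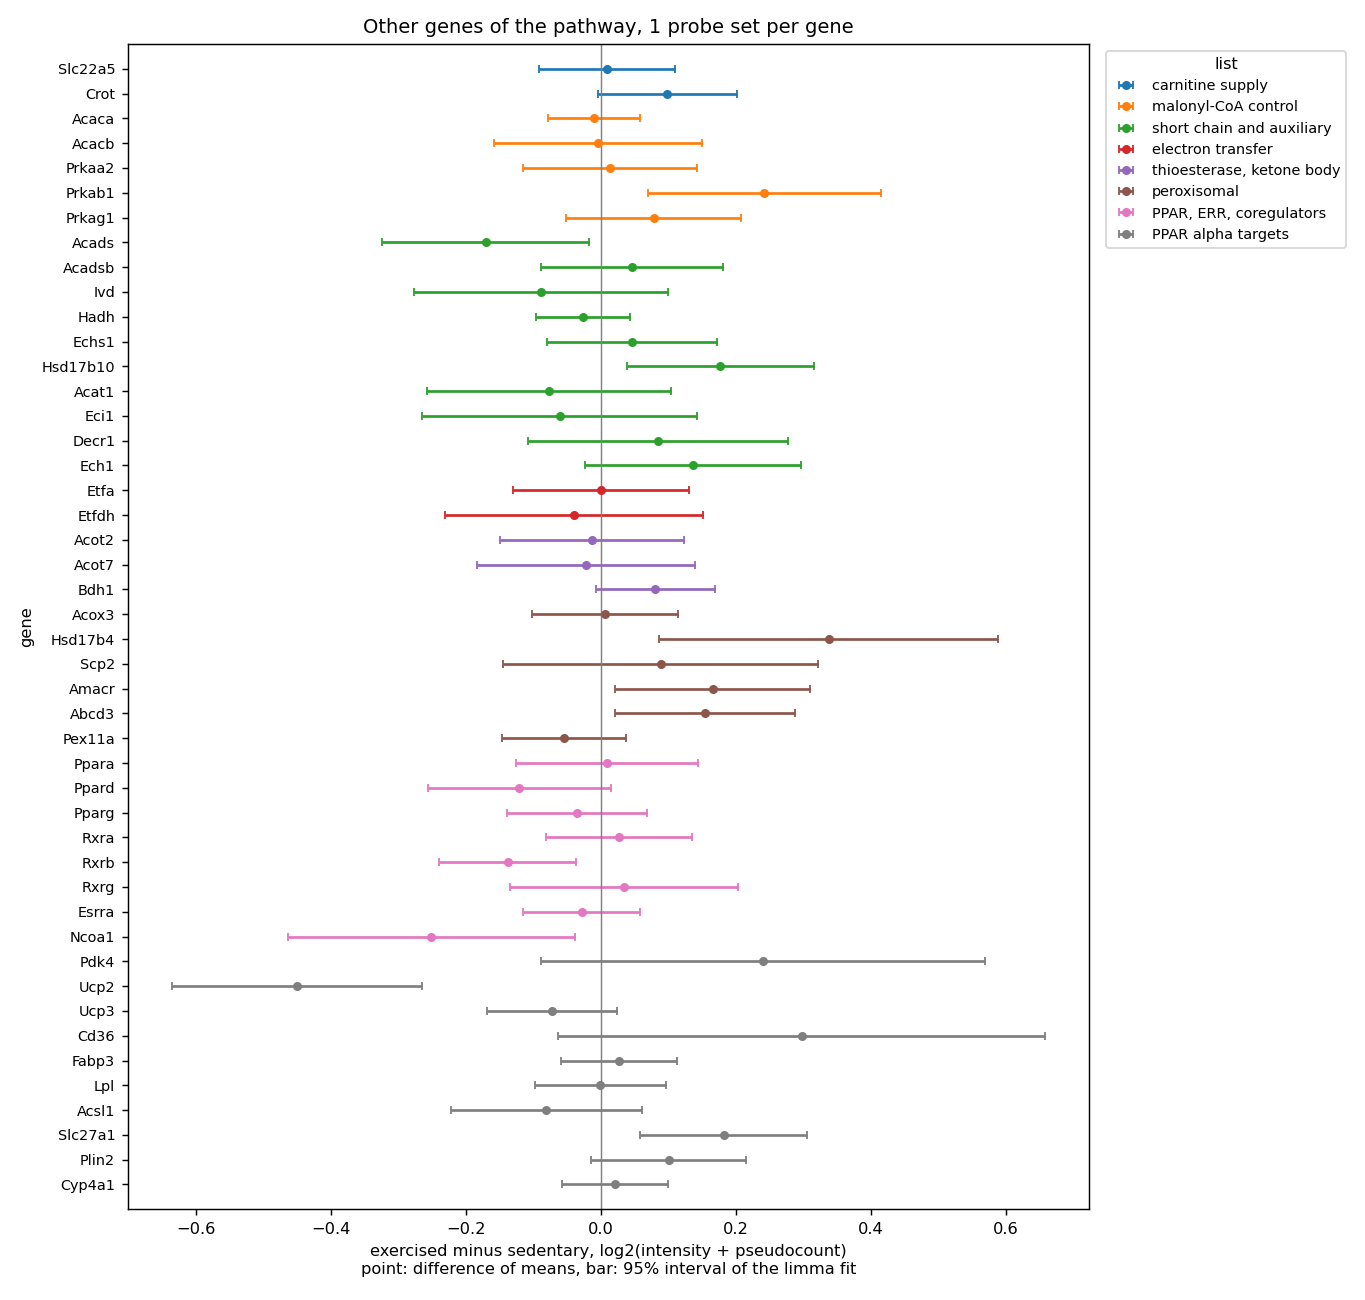
Exercised minus sedentary difference of 46 other genes of the pathway on the log2(intensity + 363) scale, with 1 probe set per gene and the 95% interval of the limma fit, coloured by list. Ucp2, at -0.45, is the one gene that passed the test, and most other points lie within 0.2 of 0.

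Among 10 tested genes of the shorter-chain and auxiliary steps, none passed, 5 being higher and 5 lower by sign. Hsd17b10, a mitochondrial hydroxyacyl-CoA dehydrogenase, gave 0.18 ± 0.065 and Acads, the short-chain dehydrogenase, -0.17 ± 0.072 (limma adjusted p of 0.196 and 0.253). The electrons that the dehydrogenases release pass through the electron transfer flavoprotein to its oxidoreductase. Its alpha subunit Etfa gave 0.00036 ± 0.061 and the oxidoreductase Etfdh -0.039 ± 0.089 (limma adjusted p of 0.998 and 0.843). The other probe sets were positive by sign, 0.095 for Etfa and 0.095 and 0.055 for Etfdh. Of the thioesterases and ketone body enzymes, 0 of 3 tested passed, with 0.081 ± 0.041 for Bdh1, which oxidises hydroxybutyrate, and -0.022 ± 0.075 for Acot7 (0.349 and 0.897).

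The peroxisomal list had the highest median, 0.12 over 6 tested genes, and none passed. Hsd17b4 went from 2150 ± 344 to 2827 ± 568 (SD, n = 6), a difference of 0.34 ± 0.12 (limma adjusted p = 0.175). The other 3 probe sets of the gene gave 0.051, 0.14 and 0.16. Abcd3, a transporter of the peroxisomal membrane, gave 0.15 ± 0.062 (limma adjusted p = 0.240). A further Abcd3 probe set gave 0.28. The other 3 measured genes of the list, Acox2, Ehhadh and Acaa1b, stayed under the filter.

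Of 16 listed receptors and coregulators that govern these genes, 8 were measured and tested, and none passed. Ppargc1a, Ppargc1b, Esrrg, Nrf1 and Tfam were among those not measured. Ppara, the receptor that drives fatty acid oxidation genes in heart, gave 0.0097 ± 0.063 (limma adjusted p = 0.952). The receptor partner Rxrb gave -0.14 ± 0.048 and the coactivator Ncoa1 -0.25 ± 0.099 (limma adjusted p of 0.173 and 0.234). Sedentary 17 held 1746 for Ncoa1, where the rest of its group held 953 to 1012, and the difference was -0.14 when it was left out. The 10 tested targets of PPAR alpha outside the spiral did not fall as a set: 6 differences were positive, 4 negative and the middle value 0.024. Only Ucp2 passed, and it fell from 17002 ± 2060 to 12325 ± 1387 (SD, n = 6), by 0.45 ± 0.087 (limma adjusted p = 0.0404). It passed without exercised 4, sedentary 13 or sedentary 21, and not in the other 9 repeats with 1 array left out (adjusted p of 0.0293 to 0.104 over all 12). The other Ucp2 probe set, AB005143_s_at, gave -0.19 ± 0.060 and did not pass (limma adjusted p = 0.151). Pdk4, which restrains glucose oxidation, gave 0.24 ± 0.15, and 0.096 without exercised 9, and Ucp3 gave -0.072 ± 0.045 (limma adjusted p of 0.447 and 0.438). The other Ucp3 probe set, AF035943_at, gave 0.012 ± 0.038 (limma adjusted p = 0.887).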

How the data were processed

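Expression was measured on 12 single-channel arrays, 6 per group, grouped by sample title. Each value is a linear probe set intensity from the authors' deposited table. How the authors corrected and scaled it, and with which software and build, is not given in the sources used here. The number of arrays limits the precision. The labels name no batch and no number is shared between the groups, so no pairing was used.

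Values were analysed as log2(intensity + 363), the pseudocount being the 20th percentile of all values. Probe sets with a mean above the 25th percentile (434) were kept, 6555 of 8740. The fit was limma 3.58.1 in R 4.3.3, two-sided, with lmFit, eBayes and an intensity trend in the variance, and Benjamini-Hochberg adjustment over the 6555. The code was tested on simulated data.

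The array's annotation gave 1 gene for 7006 probe sets, several for 308 and none for 1426. For the other genes of the pathway, the probe set of highest mean stood for the gene. From each list the text names the genes that passed, or otherwise the 2 of smallest p, and for malonyl-CoA control and the electron transfer flavoprotein every measured gene, with Ppara, Pdk4 and Ucp3. Correlations used 100000 permutations within groups, and ratios of member pairs an exact permutation test over arrays (smallest p 0.0022). The members and lists were chosen with earlier results of these data known. Alternatives were other pseudocounts, a floor, filters, scalings, variance models, array weights, an exact rank-sum test and arrays left out. The ratios and their alternatives were chosen after seeing the data.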

Additional observations from a re-analysis of the deposited data

Results flagged for a closer look

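In 68 groups of 6 arrays (named probe sets in each group), 7 held an array whose gap to its nearest neighbour took up more of the group's range, on the log2 scale, than Dixon's 95% critical value for 6 samples. Chance flags about 1 group in 20. Sedentary 17 was low for Cpt1a (1605 against 1951 to 2144 on the other sedentary arrays, a gap of 0.668 of the range), for Acadm (7529 against 9444 to 10530, 0.674) and for the AMPK gamma subunit Prkag1 (2182 against 2616 to 2872, 0.657), and high for Ncoa1 (1746 against 953 to 1012, 0.907). Exercised 7 was high for Hsd17b10 (4994 against 4229 to 4428, 0.726). Sedentary 13 was high for Abcd3 (3123 against 2529 to 2683, 0.722). Exercised 9 was high for Pdk4 (1470 against 537 to 781, 0.662).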

How the results depend on the processing

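Over 13 member probe sets and 25 alternatives (325 values) 0 passed, the lowest limma adjusted p being 0.0713, and 25 values in 6 probe sets changed sign. The exact rank-sum test is among the 25 and says nothing here: its smallest p, 0.0022, cannot pass adjustment over 6555 probe sets when 136 separate the groups. The cause of the changes below was not tested. With quantile normalization Acadm gave -0.027, Acacb 0.00069 and Etfa -0.067, and the correlations were 0.91 for Hadha with Hadhb and 0.80 for Cpt2 with Acadm. With median scaling Cpt1b (D43623_g_at) gave 0.0067 and Acacb 3.4e-05. With array weights Cpt2 gave -0.033, Acadm -0.035, Slc22a5 -0.020, Prkaa2 -0.0088, Etfa -0.044, Acot7 0.0048 and Ppara -0.020. Without exercised 4 and 5 together Cpt1b gave 0.039 and 0.065 (D43623_g_at and D43623_at), Hadha 0.011 and 0.014 (D16478_at and D16478_g_at), Acacb 0.067 and Etfa -0.010. Without sedentary 16 and 17 together Cpt2 gave -0.0035, Acadm -0.010, Etfa -0.057, Etfdh 0.013 and Ppara -0.0048.

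With 1 array left out, differences that changed sign ranged from -0.028 to 0.029 for Cpt1b (D43623_g_at), -0.049 to 0.039 for Cpt1b (D43623_at), -0.013 to 0.088 for Acadm, -0.045 to 0.0093 for Hadha (D16478_g_at), -0.019 to 0.032 for Slc22a5, -0.044 to 0.040 for Acacb, -0.019 to 0.045 for Prkaa2, -0.046 to 0.026 for Etfa, -0.086 to 0.025 for Etfdh, -0.049 to 0.028 for Acot7 and -0.028 to 0.039 for Ppara.

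The 21 calls over all tested probe sets became 32 with no filter, 50 with a filter at the median, 42 with no variance trend, 160 with array weights, 0 with the exact rank-sum test (1060 had an unadjusted limma p under 0.05), 4 without exercised 4 and 5, 5 without sedentary 16 and 17, and 3 (without sedentary 23) to 37 (without sedentary 13) with 1 array left out. The 1 call in the pathway lists, Ucp2, became 0 with the rank-sum test and without either pair of arrays, and 0 to 1 with 1 array left out. Of the member ratios, Cpt1a against Cpt1b gave 0.14 (adjusted exact permutation p = 0.0556) with a 40th percentile pseudocount, 0.15 (0.100) without exercised 4 and 5, 0.15 (0.111) without sedentary 16 and 17, and 0.13 to 0.19 with 1 array left out. Acadvl against Acadl gave 0.20 (0.100) without sedentary 16 and 17, and 0.19 to 0.27. Hadha against Hadhb gave 0.091 (0.100) without exercised 4 and 5, 0.13 (0.100) without sedentary 16 and 17, and 0.10 to 0.14. No paired analysis was possible because the groups share no sample number. Signal under the filter limits Prkaa1 and the dim Acadl probe set.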

Other observations

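Hadha and Hadhb were set beside the other head-to-head neighbours of the array. By the RefSeq windows, 23 pairs of measured genes had start sites on opposite strands within 1000 bases. Their r over the 12 arrays with group means removed ran from -0.51 to 0.95, with a median of 0.20. Hadhb and Hadha, on D16478_at, ranked 1 of the 23, and Hspd1 and Hspe1, the mitochondrial chaperonin genes with start sites 290 bases apart, ranked 2 with r = 0.85. With D16478_g_at for Hadha r was 0.84, below Hspd1 and Hspe1, and with X98225_s_at it was 0.095. These values are a description chosen after the member correlations were seen, with no test.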
